A study of Mus musculus with 19 samples.

Results

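Natural killer (NK) cells from mouse spleen that were cultured with interleukin-2 (IL-2) and a JAK3 inhibitor at 1 or 4 µM were compared with NK cells cultured with IL-2 alone. The inhibitor group held the 4 samples whose titles carry the code 6226 and a dose of 1 µM (n = 2) or 4 µM (n = 2), as 1 group, and the IL-2 group held the 4 samples with no inhibitor code, so 8 of the 19 samples in the series entered the comparison. All cells came from male C57BL/6 mice aged 6 weeks with no genetic change, were purified with an EasySep negative selection, and are given NK1.1 as their phenotype marker. Both groups received IL-2 at 250 U/ml for 8 h, went straight into TriZol, and were profiled on Affymetrix Mouse Gene 1.0 ST arrays, 1 array a sample. Further groups were used to place the comparison. They were untreated cells without IL-2 (n = 3) and IL-2 with the same inhibitor at 0.25 µM (n = 2). Also used was IL-2 with a JAK1 inhibitor coded 3404 at 1 µM (n = 2) and 4 µM (n = 1). Of the untreated samples, replicates 3 and 4 are given 8 h of culture and replicate 2, the one in the high-intensity set described below, no time. The main fits took in all 19 samples, so also IL-2 with the JAK1 inhibitor at 0.25 µM (n = 2) and 0.0625 µM (n = 1). All these further samples therefore also shaped the estimate of spread and the term for the intensity set. The inhibitors are known here only by target and code, no vehicle is named for the IL-2 samples in the sources used here, and nothing says that replicates came from separate mice or cultures, so a p-value covers no more than how far these samples vary, and that variation can be technical.

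IL-2 signals to NK cells through a receptor made of the alpha chain Il2ra, the beta chain Il2rb and the common gamma chain. JAK1 sits on the beta chain and JAK3 on the common gamma chain, and both kinases are needed to phosphorylate STAT5, which moves to the nucleus and binds DNA as a dimer. The STAT5 targets include the feedback inhibitors Cish and the Socs genes, the survival gene Bcl2, cell cycle and growth genes, and the genes of killing. The interferon receptors use other pairs of kinases (JAK1 with TYK2 for type I interferon, JAK1 with JAK2 for interferon-gamma), so JAK3 is not a part of them, whereas activated NK cells themselves secrete interferon-gamma.

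The deposited values fall on 2 scales. In 7 samples the median log2 intensity lay between 7.49 and 7.59 (the high-intensity set), and in the other 12 between 5.70 and 5.90 (the low-intensity set). The sets differed in more than level: 19.98% of probe sets had a value shared by at least 3 samples in the high-intensity set, and 0.0% in the low-intensity set. IL-2 replicates 1 and 2 had identical values for 891 genes, and IL-2 replicates 3 and 4 for 2. A term that shifts the level of a set does not cover such ties, and their cause was not tested. IL-2 replicates 1 and 2 and 1 µM replicate 1 belong to the high-intensity set, whereas IL-2 replicates 3 and 4, 1 µM replicate 2 and both 4 µM replicates belong to the low-intensity set. Every fit therefore carries a term for the set, and values of single samples are given within their set: high-intensity as 2 IL-2 samples against 1 inhibitor sample, low-intensity as 2 IL-2 samples against 3 inhibitor samples, the latter in the order 1 µM replicate 2, 4 µM replicate 1, 4 µM replicate 2. Within a set and group, the replicates correlated over genes at r = 0.978 (the 4 µM samples) to 0.9945 (IL-2 replicates 3 and 4). The sample 4 µM replicate 1 stood apart from 4 µM replicate 2 in its mitosis genes (mean log2 of 5.51 against 6.81 over 31 genes), T cell markers (6.15 against 7.09 over 15 genes) and neutrophil markers (7.57 against 8.45 over 15 genes), and list counts and splits that it changes most are given with and without it. Its title writes the units in the lower-case form seen in the high-intensity set, whereas the other low-intensity titles with units use capitals. By its values (median log2 of 5.70) it was placed in the low-intensity set, and the labels do not explain the mismatch. Every probe set has a positive value in every sample, so the NK label was looked at by level. Ncr1 lay between log2 10.41 and 12.11 in the IL-2 samples and between 8.10 and 9.85 in the inhibitor samples. Nkg7 lay between 11.70 and 13.31 and between 9.54 and 11.20, all above the median of their sample. Such levels do not by themselves set NK cells apart. Over the marker lists used below, B cell markers had a higher mean log2 than NK cell markers in every inhibitor sample. The means were 10.58 against 9.70 in the high-intensity set, and 8.73, 8.71 and 8.65 against 7.63, 7.79 and 7.88 in the low-intensity set. In every IL-2 sample the NK cell markers had the higher mean. The probe set of Jak3 is annotated with a further gene as well, so no level of Jak3 is given. An array holds no count of molecules, and the number of arrays limits the precision. In a bulk sample, fewer cells of a type and less RNA per cell cannot be told apart.

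Between the inhibitor group and the IL-2 group, 2018 of 19752 genes differed (10.2%, limma, Benjamini-Hochberg adjusted p under 0.05), 1117 of them lower with the inhibitor (5.66%) and 901 higher (4.56%). A change of 2-fold or more was reached by 431 of these (2.18%), 272 lower and 159 higher. The excess of lower calls depended on the fit: it was 955 lower and 1108 higher without 4 µM replicate 1, and 1455 lower and 1503 higher after quantile normalization. The median log2 change over all genes was -0.008. The largest falls were Gzmb, Cxcl9, Ifng, Cxcl10, Tnfrsf9, Xcl1, Iigp1, Ifit3, Usp18, Thy1, Gbp4, Zbp1, Ccl3, Klrb1a and Sh2d1b2. The largest rises were Adgre4, Clec4a3, Clec4a1, Vcan, Hpgd, Tlr8, Dpep2, Clec4d, Cd300ld, Ms4a4a, Cd36, Cd209a, Fn1, Adgre1 and Clec4n. These are the 15 largest falls and the 15 largest rises, predicted genes passed over. Each of the 30 kept its call under all 17 alternatives tried beside the high-intensity set alone, where 1 inhibitor sample stood against 2 and 0 genes passed limma's test (1247 at an unadjusted p under 0.05). Within the low-intensity set alone, 1011 genes passed (5.12%, with 1.92% higher and 3.2% lower), 1003 of which were also among the 2018. The 30 named here are the largest changes. Of all 2018 genes, 547 kept their call under the alternatives, with the high-intensity set alone and the filter on dim genes left aside.

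**Figure D1:**
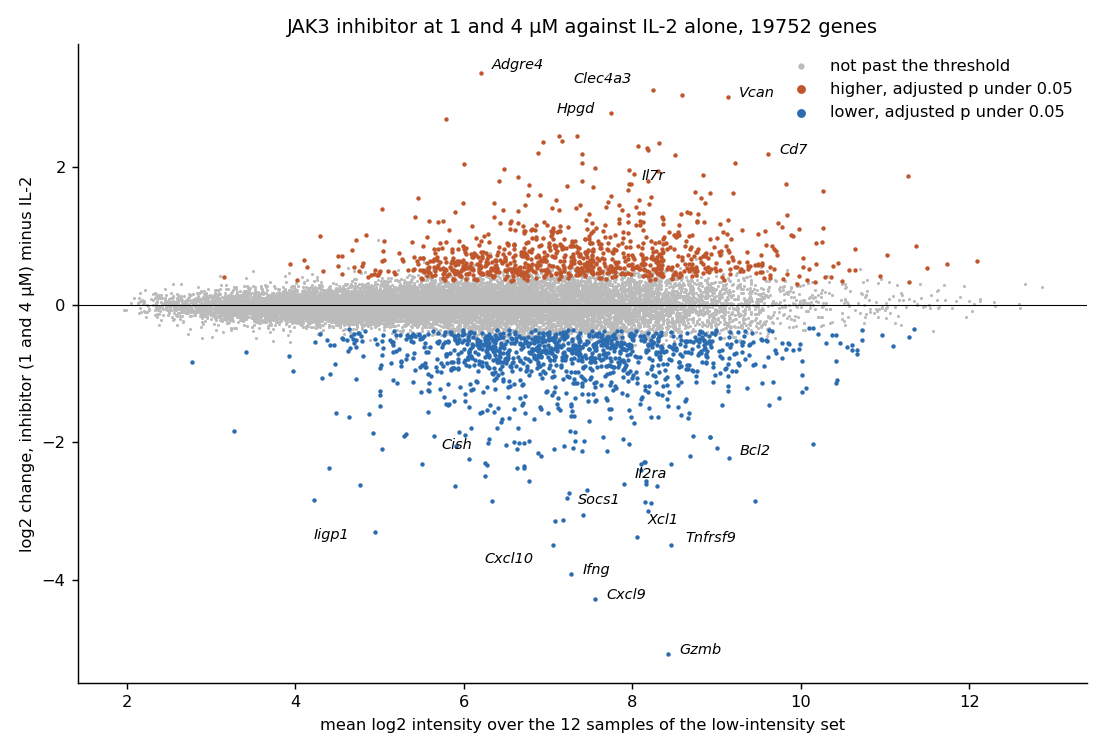
Log2 change of each of 19752 genes, inhibitor at 1 and 4 µM minus IL-2 alone, against the gene's mean log2 intensity over the 12 samples of the low-intensity set. Blue points are the 1117 genes that were lower and orange points the 901 that were higher at an adjusted p under 0.05, with Gzmb lowest at -5.07 and Adgre4 highest at 3.37.

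The receptor and its feedback inhibitors were lower with the inhibitor. Members of lists that are named below without values of single samples or a change were picked out after their values were seen. Counts of list members here and below are to be read beside the shares over all genes, 5.66% lower and 4.56% higher. In the low-intensity set alone those shares were 3.2% and 1.92%. A single call in a list is not read as a shift of that list. Il2ra, the alpha chain that gives the receptor its high affinity, was at 10.86 and 11.03 in the high-intensity IL-2 samples against 8.53 with the inhibitor, and at 9.82 and 9.48 in the low-intensity IL-2 samples against 7.45, 6.45 and 6.91. The inhibitor samples were below every IL-2 sample of their set, and Il2ra fell by 2.60 ± 0.19 on the log2 scale (SE here and below, 4 against 4 samples, adjusted p = 3.19e-09). Many genes named here and below were picked by size of change or p in these same samples. For them a lack of overlap describes the values and is no further support. The share of all genes without overlap was not counted. Cish, a SOCS-box protein induced by STAT5 that damps the receptor, was at 9.15 and 9.41 against 7.51, and at 8.08 and 7.82 against 6.02, 5.50 and 5.72. All 4 inhibitor samples again lay below the IL-2 samples of their set (change of -2.01 ± 0.14, adjusted p = 1.40e-09). Socs1, which binds JAK kinases and blocks them, was at 10.68 and 10.79 against 8.10, and at 9.15 and 9.39 against 6.49, 6.22 and 6.40. Its change was -2.81 ± 0.13 (adjusted p = 4.88e-12), a fall of the same kind in all inhibitor samples. Socs2, another member of the family, moved less: it was at 8.64 and 9.09 against 8.10, and at 7.35 and 7.37 against 6.79, 6.23 and 6.64 (change of -0.75 ± 0.14, adjusted p = 0.000761).

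Of the 36 JAK-STAT components and cytokine receptors measured, 12 fell and 4 rose, and the list's median change was -0.003. The falling members were Cish, Socs1, Socs2, Socs3, Il2ra, Il2rb, Il4ra, Il12rb1, Il12rb2, Il15ra, Ptpn2 and Stat2, which are receptor chains or inhibitors of the pathway apart from the transcription factor gene Stat2. Il12rb1, a chain of the IL-12 receptor, changed by -1.66 ± 0.17, and Il2rb by -1.13 ± 0.15. The risers were Il7r, Il9r, Ifngr2 and Jak1, and after quantile normalization 8 members were higher and 12 lower. Il7r, the alpha chain of the IL-7 receptor, was at 8.57 and 8.94 against 10.67 with the inhibitor, and at 6.70 and 6.78 against 8.59, 8.06 and 8.62. Every inhibitor sample exceeded the IL-2 samples of its set, and Il7r rose by 1.76 ± 0.15 (adjusted p = 5.60e-08). The kinase and STAT genes were also looked up after the values were seen: Jak1 changed by 0.50 ± 0.11 (adjusted p = 0.00453, and 0.118 in the low-intensity set alone), Jak2 by 0.03 ± 0.15 (adjusted p = 0.963), Stat5a by -0.05 ± 0.15 (adjusted p = 0.943) and Stat5b by 0.41 ± 0.16 (adjusted p = 0.131, past the threshold after quantile normalization and without 4 µM replicate 1). Protein and phosphorylation were not measured.

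**Figure D2:**
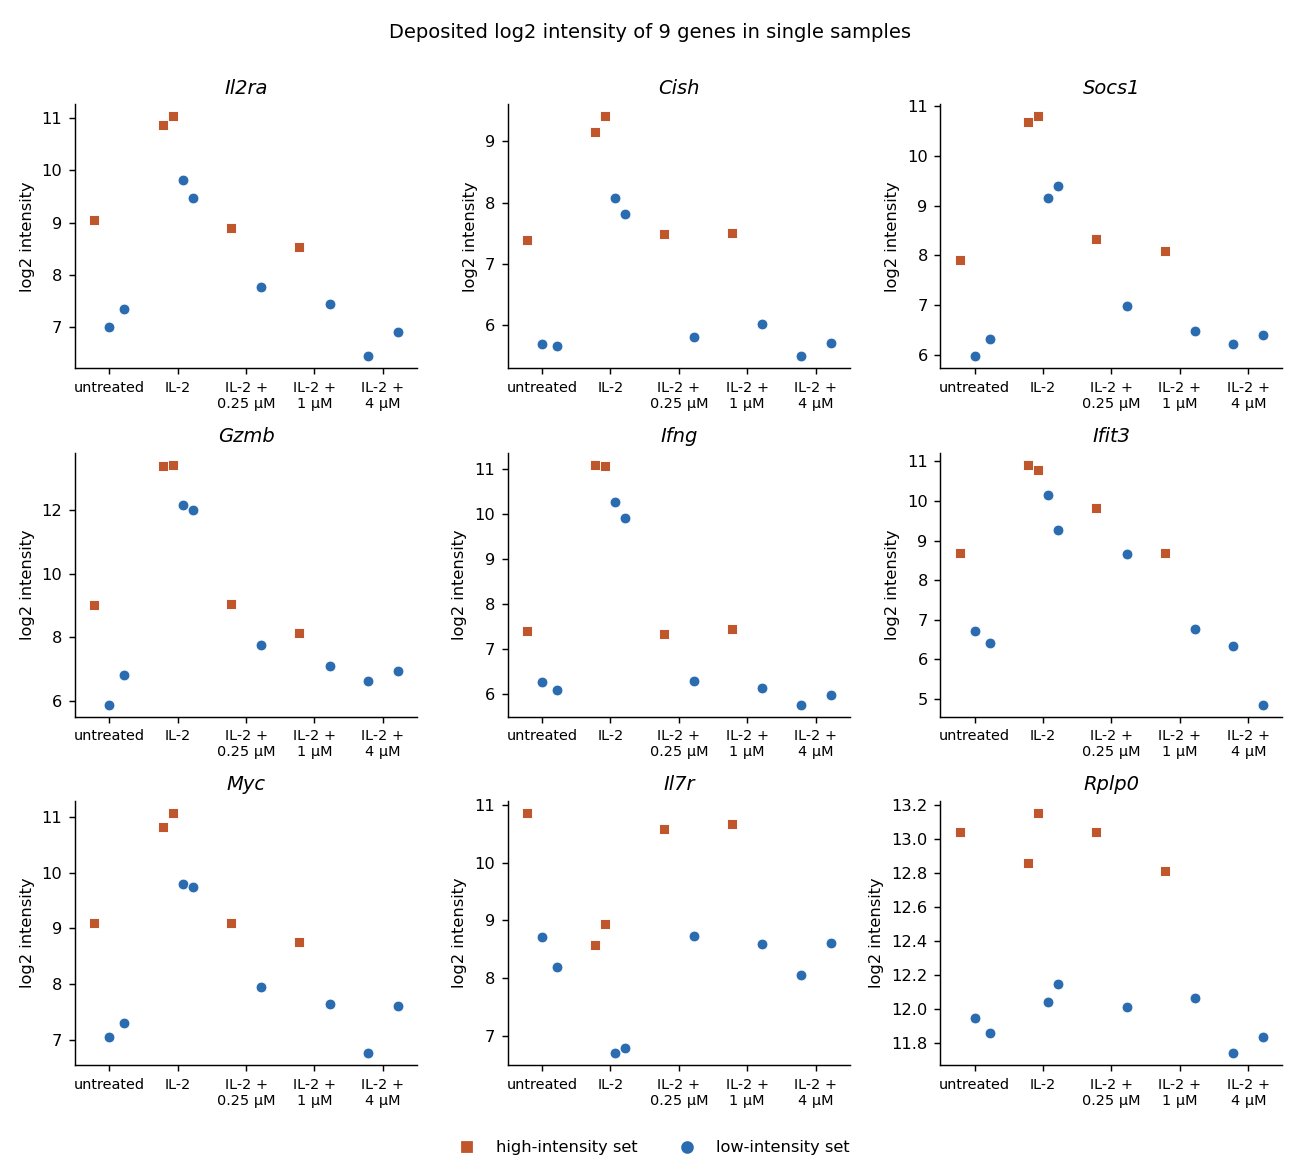
Deposited log2 intensity of 9 genes in single samples of the untreated, IL-2 and IL-2 with JAK3 inhibitor groups, high-intensity set as squares and low-intensity set as circles, 1 point a sample. Within each set the 1 and 4 µM samples lie below the IL-2 samples for Il2ra, Cish, Socs1, Gzmb, Ifng, Ifit3 and Myc and above them for Il7r, while Rplp0, a ribosomal protein gene, overlaps in the low-intensity set.

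A list of 39 measured genes of the IL-2/STAT5 response had 30 members lower and 0 higher, and a median change of -1.04 (all genes -0.008). At 1 µM alone and at 4 µM alone the number lower was 30 each, and in the low-intensity set it was 27. Myc, the growth transcription factor, was at 10.81 and 11.06 against 8.75, and at 9.79 and 9.75 against 7.65, 6.77 and 7.60. The groups did not overlap in either set and Myc fell by 2.32 ± 0.18 (adjusted p = 9.10e-09). Ccnd2, the D-type cyclin that starts G1 progression, changed by -2.63 ± 0.17, and Bcl2, which holds mitochondria closed against apoptosis, was at 12.12 and 12.21 against 10.19, and at 10.69 and 10.71 against 8.52, 8.00 and 8.43. Bcl2 was thus lower in all 4 inhibitor samples (change of -2.23 ± 0.16, adjusted p = 2.50e-09). Pim1, a survival kinase, differed less, at 10.61 and 11.40 against 9.85, and at 9.48 and 9.70 against 8.66, 8.40 and 8.92 (change of -0.94 ± 0.18, adjusted p = 0.000893). Tnfrsf9, the costimulatory receptor 4-1BB, was at 11.78 and 12.10 against 8.71, and at 11.06 and 10.98 against 7.41, 7.25 and 7.20, with a change of -3.50 ± 0.17 (adjusted p = 1.32e-11). The Tnfrsf9 values did not overlap in either set.

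The genes of killing fell unevenly. Gzmb, the granzyme that cuts caspases in the target cell, had the largest change of all genes: it was at 13.40 and 13.44 against 8.13, and at 12.17 and 12.03 against 7.09, 6.62 and 6.94. The inhibitor samples were lower by 5.07 ± 0.31 in log2 terms, which is 33.65-fold (adjusted p = 3.49e-10). Prf1, the pore-forming perforin, was at 11.46 and 11.66 against 9.11, and at 10.12 and 10.002 against 7.32, 7.86 and 7.98. The inhibitor samples were again lower in both sets, with a Prf1 change of -2.28 ± 0.23 (adjusted p = 4.74e-07). Among the 25 genes of cytotoxic granules and death ligands, 11 fell and 2 rose (Gzmk and Lamp1), with a median of -0.35. Gzmc, a further granzyme, changed by -2.61 ± 0.27, Nkg7, a granule membrane protein, by -2.02 ± 0.15, and Serpinb9, which protects the killer cell from its own granzyme B, by -2.40 ± 0.18.

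About as many cytokine and chemokine genes fell as did not pass the test. Ifng, the macrophage-activating interferon, was at 11.09 and 11.08 against 7.45, and at 10.27 and 9.90 against 6.14, 5.77 and 5.99. With a change of -3.91 ± 0.16 it had the smallest p of all genes (adjusted p = 1.19e-12), and the groups did not overlap in either set. Xcl1, a chemokine that draws cross-presenting dendritic cells, changed by -3.37 ± 0.19, and the chemokines Ccl3 and Ccl4 by -2.85 ± 0.21 and -2.63 ± 0.20. Osm, which codes for oncostatin M, changed by -1.57 ± 0.12. Of the 21 genes in the list, 10 fell (the others were Csf2, Flt3l, Lif, Lta and Tnf), 2 rose (Ccl9 and Ebi3), and the remaining 9 did not pass, for a median of -0.15.

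Both interferon lists were lower. Of 38 type I interferon-stimulated genes, 38 fell and 0 rose, with a median change of -1.84 and a range from -3.15 to -0.51, and in the low-intensity set alone 37 fell. The median differed by set, at -2.10 in the low-intensity set alone and -1.21 in the high-intensity set alone, which holds no 4 µM sample. Of 23 interferon-gamma response genes, 20 fell and 0 rose (median -1.04). Ifit3, which binds viral RNA complexes, was at 10.92 and 10.78 against 8.69, and at 10.15 and 9.27 against 6.76, 6.35 and 4.85. The 4 µM replicate 2 sample was the lowest, and the change was -3.15 ± 0.34 (adjusted p = 9.34e-07). Usp18, which removes ISG15 and blocks the type I interferon receptor, was at 10.65 and 10.67 against 8.34, and at 10.15 and 9.41 against 6.95, 6.13 and 5.30. It stood lower in all inhibitor samples (change of -3.13 ± 0.33, adjusted p = 6.02e-07). Zbp1, a sensor of Z-form nucleic acid, changed by -2.86 ± 0.26, Mx1, an antiviral dynamin-like GTPase, by -1.91 ± 0.20, and Oas2, which makes the activator of RNase L, by -2.04 ± 0.22. On the interferon-gamma side, Cxcl9, a chemokine for CXCR3-bearing cells, was at 12.52 and 12.40 against 9.30, and at 10.97 and 10.72 against 6.66, 5.94 and 5.34. The second chemokine of that receptor, Cxcl10, was at 11.77 and 11.73 against 8.69, and at 10.19 and 9.47 against 6.71, 5.93 and 5.55. Their changes were -4.28 ± 0.28 (Cxcl9, adjusted p = 9.62e-10) and -3.50 ± 0.28 (Cxcl10, adjusted p = 1.14e-08), with no overlap in either set. The interferon-inducible GTPases Iigp1, Gbp4 and Gbp7 changed by -3.31 ± 0.15, -2.89 ± 0.20 and -2.31 ± 0.16.

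Promoters are shown because members of the IL-2/STAT5 and type I interferon lists moved together, and they are those of the 3 genes of each list with the largest fall among the genes whose window held a motif. Genes with larger falls and no motif in the window, such as Gzmb, are therefore not shown. They were taken from RefSeq (GRCm38.p6, 250 bases before the gene start, 5′ to 3′ on the gene's strand), and both strands were searched for TTCNNNGAA, the palindrome that STAT dimers bind, and for the core of the interferon-stimulated response element, which is GAAA, any pair of bases, and GAAA again. Capitals mark the matches. The IL-2/STAT5 genes are Ifng (chr10:118440796-118441045, plus strand), Tnfrsf9 (chr4:150927749-150927998, plus strand) and Socs1 (chr16:10785537-10785786, minus strand), and the interferon genes are Ifit3 (chr19:34583279-34583528, plus strand), Oas3 (chr5:120777660-120777909, minus strand) and Slfn5 (chr11:82951852-82952101, plus strand).
Ifng: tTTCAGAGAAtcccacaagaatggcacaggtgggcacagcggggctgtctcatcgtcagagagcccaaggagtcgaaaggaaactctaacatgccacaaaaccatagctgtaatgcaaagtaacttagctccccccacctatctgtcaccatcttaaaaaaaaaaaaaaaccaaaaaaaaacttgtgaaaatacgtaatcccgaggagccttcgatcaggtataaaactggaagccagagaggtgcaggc
Tnfrsf9: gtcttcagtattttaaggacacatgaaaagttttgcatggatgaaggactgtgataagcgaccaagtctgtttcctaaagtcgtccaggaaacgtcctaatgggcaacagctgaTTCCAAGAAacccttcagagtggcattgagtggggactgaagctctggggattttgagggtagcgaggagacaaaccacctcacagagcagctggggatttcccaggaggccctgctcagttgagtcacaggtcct
Socs1: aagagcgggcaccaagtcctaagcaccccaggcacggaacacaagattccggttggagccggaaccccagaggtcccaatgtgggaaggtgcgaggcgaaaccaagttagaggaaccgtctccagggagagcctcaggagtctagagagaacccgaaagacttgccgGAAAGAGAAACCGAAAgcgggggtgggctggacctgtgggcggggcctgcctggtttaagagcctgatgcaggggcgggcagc
Ifit3: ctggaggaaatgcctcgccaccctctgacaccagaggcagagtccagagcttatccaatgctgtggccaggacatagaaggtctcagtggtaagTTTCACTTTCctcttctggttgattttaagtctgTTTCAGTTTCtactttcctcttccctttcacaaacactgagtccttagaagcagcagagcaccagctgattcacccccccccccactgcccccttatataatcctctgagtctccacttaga
Oas3: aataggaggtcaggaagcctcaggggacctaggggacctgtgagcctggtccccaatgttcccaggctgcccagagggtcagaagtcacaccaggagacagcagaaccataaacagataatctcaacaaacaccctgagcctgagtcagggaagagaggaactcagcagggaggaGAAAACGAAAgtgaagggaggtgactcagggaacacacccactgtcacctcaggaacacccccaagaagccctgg
Slfn5: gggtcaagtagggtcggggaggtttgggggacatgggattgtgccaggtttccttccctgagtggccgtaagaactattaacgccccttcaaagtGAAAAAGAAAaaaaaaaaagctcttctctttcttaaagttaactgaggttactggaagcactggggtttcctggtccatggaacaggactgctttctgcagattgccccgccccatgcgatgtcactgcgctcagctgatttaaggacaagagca

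Ifng held TTCAGAGAA at position -249 from the gene start and Tnfrsf9 held TTCCAAGAA at -136. Socs1, an IL-2/STAT5 list member, held no TTCNNNGAA in this window but the overlapping pair GAAAGAGAAA at -83 and GAAACCGAAA at -77. Ifit3 held TTTCACTTTC at -156 and TTTCAGTTTC at -122, Oas3 held GAAAACGAAA at -75 and Slfn5 held GAAAAAGAAA at -155. The changes of the last pair of genes were -2.35 ± 0.27 for Oas3 and -2.33 ± 0.31 for Slfn5. Over 32851 mouse promoters of the same length, 7.02% held TTCNNNGAA and 2.98% held the response element core. Counted by gene, as the lists are, the shares were 7.7% and 3.4% of the 15483 genes on the array with a promoter. Of the 31 IL-2/STAT5 genes with a promoter in the table, 5 (16.1%) held TTCNNNGAA and 1 (3.23%) held the response element core, and of the 28 type I interferon genes, 5 (17.9%) and 10 (35.7%) held them. These are matches of letters only, and no binding was measured.

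Growth and biosynthesis genes were lower as groups, while cytosolic ribosomal proteins were not. Of 47 ribosome biogenesis and nucleolar genes, 42 fell and 0 rose (median -0.90), and 34 fell in the low-intensity set alone. Rrp1b, a nucleolar processing factor, was at 8.71 and 9.36 against 7.52, and at 7.28 and 7.44 against 5.89, 5.54 and 5.89 (change of -1.55 ± 0.14, adjusted p = 8.67e-08). Dkc1, the pseudouridine synthase of small nucleolar particles, changed by -1.56 ± 0.16 and Gnl3, a nucleolar GTPase, by -1.46 ± 0.15. None of 31 cytosolic ribosomal protein genes passed the limma test in either direction (median -0.0), of which Rplp0 had the smallest p: it was at 12.86 and 13.15 against 12.81, and at 12.04 and 12.15 against 12.07, 11.74 and 11.83. Its low-intensity samples overlapped (change of -0.18 ± 0.09, adjusted p = 0.334). By unadjusted p under 0.05, 0 of the 31 ribosomal protein genes passed.

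Srm, the spermidine synthase, was at 11.08 and 11.36 against 8.99, and at 10.18 and 10.09 against 8.10, 7.44 and 8.26. It fell by 2.20 ± 0.15 (adjusted p = 1.86e-09), the largest change among 25 genes of polyamine, nucleotide and one-carbon synthesis, 18 of which fell and 0 rose (median -0.80). Psat1, of serine synthesis, changed by -1.45 ± 0.15 and Ctps, the CTP synthase, by -1.12 ± 0.14. Slc7a5, the leucine transporter chain, was at 10.95 and 11.24 against 9.12, and at 9.84 and 10.09 against 8.30, 7.44 and 8.55 (change of -1.91 ± 0.19, adjusted p = 2.21e-07). Slc7a11, the cystine transporter, went the other way, at 8.07 and 8.52 against 10.48, and at 6.09 and 6.32 against 8.21, 7.74 and 8.26 (change of 2.06 ± 0.18, adjusted p = 6.57e-08). In their list of 29 amino acid transport and ATF4 target genes, 11 fell, among them the tryptophanyl-tRNA synthetase gene Wars (change of -2.03 ± 0.16), and 2 rose, the other one being Cebpb.

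Translation and folding genes showed falls of smaller size. Of 23 translation factors 12 fell, with Eef1e1 at -1.19 ± 0.13 and the cap-binding factor Eif4e at -0.79 ± 0.12. Of 23 cytosolic and mitochondrial chaperones 16 fell, with the mitochondrial chaperonin Hspd1 at -1.24 ± 0.14 and the chaperonin subunit Cct6a at -1.02 ± 0.13, and of 25 endoplasmic reticulum chaperones 14 fell, with Hspa5 at -0.89 ± 0.14 and Creld2 at -1.17 ± 0.19. Of 30 proteasome subunits 13 fell, with Psma4 at -0.80 ± 0.13, and no member of these 4 lists rose. In the low-intensity set alone, 6 endoplasmic reticulum chaperones and 4 proteasome subunits fell. Glycolysis genes were divided: of 19, 5 fell (with the phosphofructokinase gene Pfkp at -1.29 ± 0.15 and the lactate transporter gene Slc16a1 at -1.15 ± 0.15) and 2 rose (with the lactate exporter gene Slc16a3 at 0.89 ± 0.17, and Aldoc). Ldha, lactate dehydrogenase, changed by -0.82 ± 0.15 (adjusted p = 0.000619, but 0.0508 in the low-intensity set alone). Few members of the oxidative phosphorylation list (4 of 26 lower, 0 in the low-intensity set) and of the sterol and fatty acid list (2 of 22 lower, 1 higher) passed. Cox6c changed by -0.37 ± 0.09 (adjusted p = 0.00817, but 0.196 in the low-intensity set alone), Scd1, the stearoyl-CoA desaturase, by 0.91 ± 0.13, and Fasn, the fatty acid synthase, by -0.91 ± 0.18 (adjusted p = 0.00127, but 0.0817 in the low-intensity set alone).

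**Figure D3:**
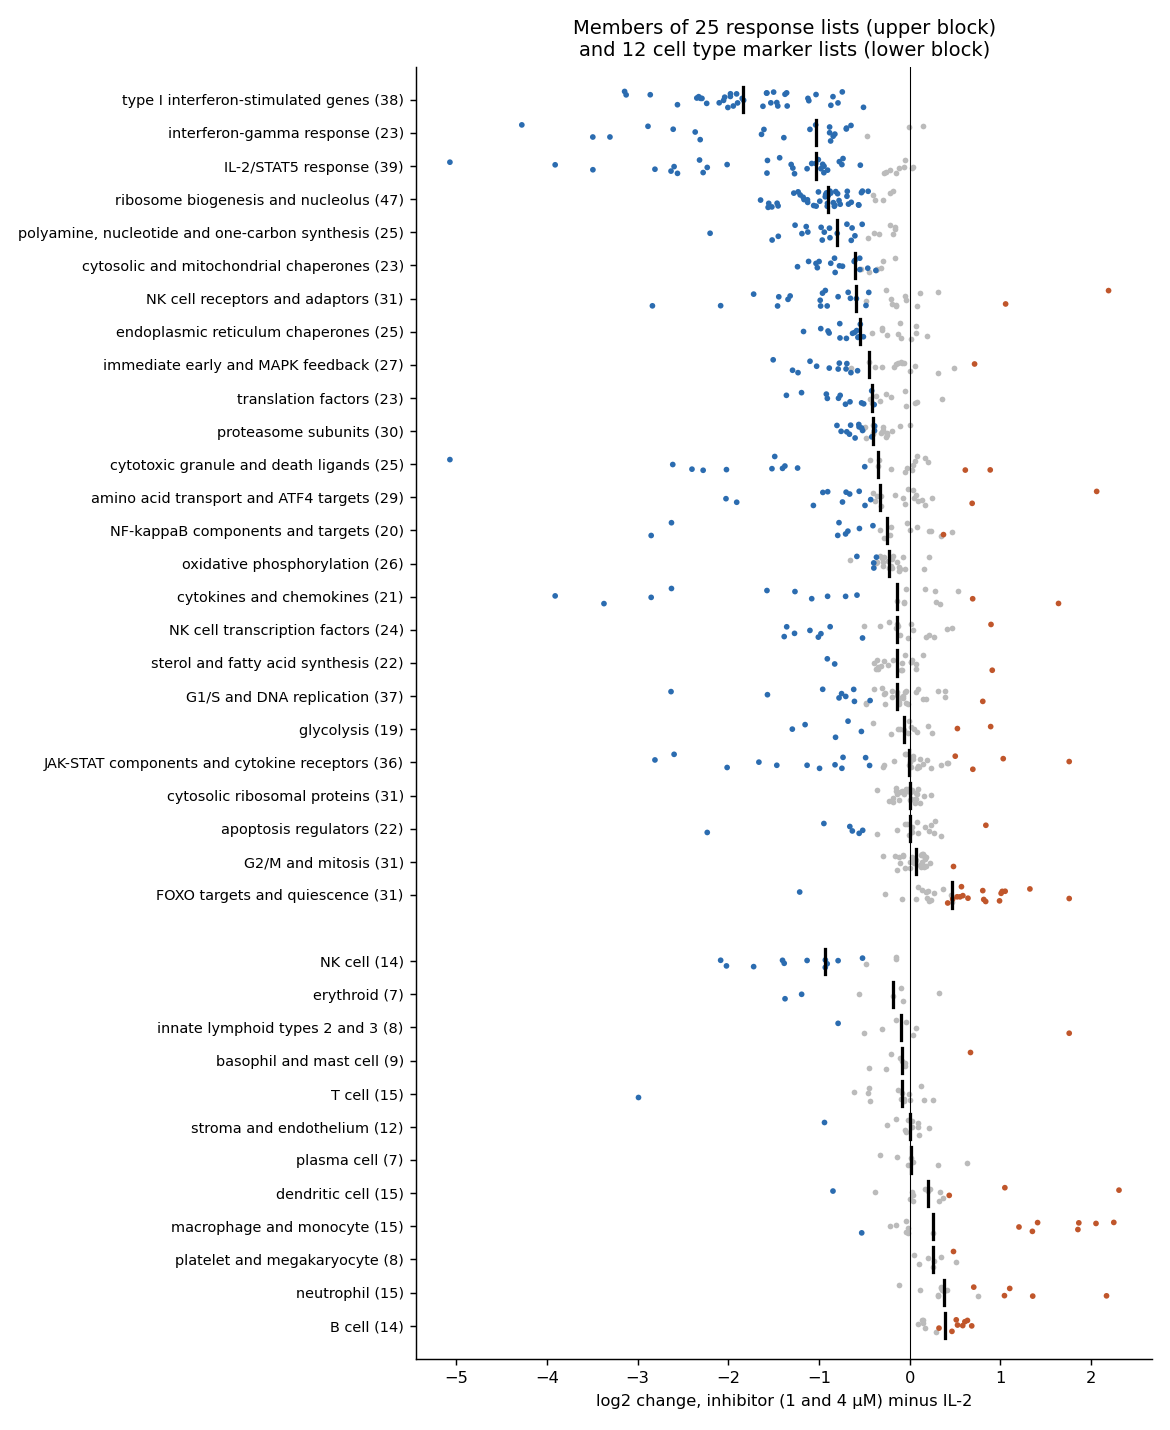
Log2 change, inhibitor at 1 and 4 µM minus IL-2 alone, of each measured member of 25 response lists (upper block) and 12 marker lists (lower block), with the number of members in brackets and the list median as a black bar. Blue and orange points passed the test as lower and higher, grey points did not, and the medians run from -1.84 (type I interferon-stimulated genes) to 0.465 (FOXO targets and quiescence) in the upper block.

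Cell cycle entry genes were partly lower. Of 37 G1/S and DNA replication genes, 9 fell and 1 rose (median -0.14), and 3 fell in the low-intensity set alone. Cdk6, a partner of the D-type cyclins, was at 11.06 and 11.39 against 9.61, and at 9.68 and 9.93 against 8.58, 7.66 and 8.58 (change of -1.57 ± 0.17, adjusted p = 1.33e-06). Cdkn1b, the inhibitor p27 that holds cells out of S phase, was the riser, at 9.88 and 10.04 against 10.64, and at 8.34 and 8.21 against 9.10, 9.03 and 9.18 (change of 0.81 ± 0.13, adjusted p = 1.00e-04). Ccnd3 and Cdk4 changed by -0.96 ± 0.18 and -0.78 ± 0.15, with adjusted p-values of 0.0824 and 0.0544 in the low-intensity set alone. Of 31 G2/M and mitosis genes 1 rose, the centromere histone gene Cenpa (change of 0.48 ± 0.15, adjusted p = 0.0402), and 0 fell. Its call was lost under 9 alternatives, among them median centring and the low-intensity set alone (adjusted p = 0.115). This list turned on 1 sample: Cdk1, the mitotic kinase, was at 7.15 and 7.01 in the low-intensity IL-2 samples against 7.41, 5.83 and 7.59, where 5.83 is 4 µM replicate 1. The list median was 0.074 with that sample and 0.347 without it, when 3 members rose.

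NK receptor genes were lower for the most part. Of 31 receptors and adaptors 18 fell and 2 rose (Cd7 and Fcgr3), with a median of -0.59. Ncr1, the activating receptor NKp46, was at 12.11 and 12.04 against 9.85, and at 10.46 and 10.41 against 8.36, 8.10 and 8.48. It was lower in all inhibitor samples (change of -2.09 ± 0.17, adjusted p = 1.44e-08). Sh2d1b2, an adaptor of the SLAM receptors, was at 9.80 and 9.46 against 6.84, and at 6.85 and 5.92 against 3.57, 3.81 and 2.96 (change of -2.84 ± 0.21, adjusted p = 2.87e-09). With the inhibitor Sh2d1b2 lay below the median of every sample. No background level is given, so how much of those values is signal, and so the size of the fall, is not known. Klrb1a and Klrb1f, lectin receptors of the NKR-P1 family, changed by -2.85 ± 0.24 and -1.46 ± 0.14, Klrb1c, the gene of NK1.1, by -1.72 ± 0.25, and Cd244a, the receptor 2B4, by -1.44 ± 0.15. Cd7, an immunoglobulin-like surface protein, was at 9.24 and 9.31 against 11.38, and at 8.04 and 7.86 against 10.29, 9.96 and 10.30 (change of 2.19 ± 0.13, adjusted p = 1.17e-10). Thy1, a surface glycoprotein that IL-2 also brings up on NK cells, was at 11.36 and 11.73 against 8.70, and at 10.37 and 10.34 against 7.498, 6.61 and 7.62 (change of -2.996 ± 0.19, adjusted p = 3.49e-10). No other of the 15 T cell markers passed. The T cell list median was -0.084, and 0.09 without 4 µM replicate 1, when 1 marker rose.

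Among 24 NK cell transcription factors, 8 fell and 1 rose. Tbx21, which codes for T-bet and drives NK maturation, was at 10.66 and 10.91 against 9.52, and at 8.96 and 8.94 against 7.41, 7.22 and 7.52 (change of -1.38 ± 0.17, adjusted p = 7.61e-06). Id2, needed for innate lymphoid development, changed by -1.27 ± 0.13, Irf8 by -1.10 ± 0.14 and Zbtb32, which lets NK cells proliferate, by -1.36 ± 0.13. The riser was Zeb2, a zinc-finger repressor, with a change of 0.90 ± 0.11. After quantile normalization 6 members of this list were higher and 9 lower.

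FOXO targets and quiescence genes had the highest median of the 25 response lists: 16 of 31 rose, 1 fell, and the median was 0.465. The risers included Il7r and Cdkn1b, given above. S1pr1, the receptor that takes lymphocytes out of tissue, was at 10.12 and 10.20 against 11.24, and at 8.34 and 8.48 against 9.51, 9.26 and 9.57. The inhibitor samples were higher in both sets (change of 1.05 ± 0.11, adjusted p = 7.73e-07). Cxcr4, the receptor for the bone marrow chemokine CXCL12, changed by 1.01 ± 0.10 and Rgs2, a brake on G-protein signals, by 1.33 ± 0.13. The exception was Gimap4, a lymphocyte GTPase (change of -1.21 ± 0.12). Of 22 apoptosis regulators, 6 fell, Bcl2 and Bcl2l1 (-0.95 ± 0.12) among them, and 1 rose, the death-promoting BH3-only gene Bmf, with a change of 0.84 ± 0.14.

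Of 27 immediate early and MAPK feedback genes 12 fell and 1 rose (Dusp1), with a median of -0.45. Spred2, an inhibitor of RAS signalling, changed by -1.51 ± 0.14, Jun by -1.29 ± 0.15, Fosl1 by -1.23 ± 0.14 and Egr1 by -1.10 ± 0.15. Of 20 NF-kappaB components and targets 8 fell, including Nfkbiz (-0.78 ± 0.14) and Tnf (-0.71 ± 0.14), and 1 rose (Rel). After median centring 0 of the 20 were higher and after quantile normalization 4.

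The largest rises were genes known from monocytes, macrophages and other myeloid cells. Adgre4, an adhesion receptor of the F4/80 family, was at 6.32 and 5.95 against 9.73, and at 3.97 and 4.39 against 7.47, 7.40 and 7.13. It was higher in all inhibitor samples, by 3.37 ± 0.18 (adjusted p = 2.99e-11). In the IL-2 samples Adgre4 lay below the median of its sample, and the files give no background level, so how much of its IL-2 value is signal is not known. Clec4a3, Clec4a1, Clec4d and Clec4n, C-type lectins of myeloid cells, changed by 3.11 ± 0.20, 3.04 ± 0.16, 2.45 ± 0.12 and 2.21 ± 0.16. Vcan, the matrix proteoglycan versican, was at 7.25 and 7.60 against 10.78, and at 7.29 and 7.13 against 10.02, 9.71 and 10.25 (change of 3.02 ± 0.19, adjusted p = 3.49e-10). Hpgd, which degrades prostaglandins, changed by 2.79 ± 0.14, the RNA sensor Tlr8 by 2.70 ± 0.17, the peptidase gene Dpep2 by 2.46 ± 0.13 and the scavenger receptor gene Cd36 by 2.35 ± 0.19. Cd300ld, Ms4a4a, Cd209a, Fn1 and Adgre1, the last of which codes for F4/80, changed by 2.38 ± 0.16, 2.37 ± 0.21, 2.31 ± 0.12, 2.28 ± 0.25 and 2.252 ± 0.15.

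These rises came with markers of cells other than NK cells. Of 15 macrophage and monocyte markers 7 rose (Adgre1, Cd14, Cd68, Csf1r, Cx3cr1, Lyz1 and Lyz2) and 1 fell (C1qb). The other 7 did not pass (C1qa, C1qc, Ccr2, Fcgr1, Marco, Mrc1 and Vcam1). The list did not rise as a whole: 7 of the 15 had a change below 0. Its median was 0.262, and 0.091 in the low-intensity set alone. The summed intensity of the 15 markers, which the brightest members weigh most, was 6111 and 6658 in the high-intensity IL-2 samples against 18774 with the inhibitor. In the low-intensity set it was 2473 and 2649 in the IL-2 samples against 6695, 7458 and 5673. The sums were higher in every inhibitor sample, and no member was at 0, the lowest being 15.5 intensity units. Csf1r, the receptor of macrophage growth factor, was at 8.49 and 9.05 against 11.05, and at 7.86 and 8.13 against 9.91, 9.82 and 9.79 (change of 2.06 ± 0.17, adjusted p = 1.76e-08), and Lyz2, the myeloid lysozyme, changed by 1.87 ± 0.13, Cd14 by 1.86 ± 0.17 and Cx3cr1 by 1.41 ± 0.13. The part of these cells in the rises was not tested.

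Of 15 neutrophil markers 5 rose with 4 µM replicate 1 in the group and 12 without it, and 0 fell in either case. Mmp8, neutrophil collagenase, was at 7.93 and 8.17 against 9.91, and at 6.62 and 6.62 against 9.36, 8.33 and 9.50 (change of 2.17 ± 0.21), and Csf3r changed by 1.36 ± 0.16. The neutrophil sum was 11812 and 11794 against 16555, and 5171 and 5076 against 9387, 4785 and 8598, so that 4 µM replicate 1 lay below the IL-2 samples. Of 14 B cell markers 8 rose in the fit of both sets and 0 passed in the low-intensity set alone. The B cell sum was 24944 and 26780 against 32025, and 8022 and 8639 against 10455, 10188 and 9419, and the B cell factors Ebf1 and Pax5 changed by 0.68 ± 0.13 and 0.51 ± 0.12. Of 14 NK cell markers 11 fell and 0 rose (median -0.93), and their sum was 40799 and 44748 against 16497, and 12208 and 12207 against 4313, 4871 and 4822. The T cell sum was 6508 and 7408 against 4131, and 3694 and 3544 against 2578, 1354 and 2729. It includes Thy1, the only T cell marker that passed, so the sum does not show that the other T cell markers fell. No marker of these lists was at 0 in any sample, the lowest intensity being 26.9 for NK cell, 22.3 for neutrophil, 33.5 for B cell and 10.5 for T cell markers. Of the other marker lists, 3 of 15 dendritic cell, 1 of 8 platelet, 1 of 9 basophil and mast cell and 1 of 8 innate lymphoid markers rose, and 1 dendritic cell, 2 of 7 erythroid, 1 of 12 stroma and 1 innate lymphoid marker fell. Over all genes 4.56% rose and 5.66% fell, so the single calls among these are not read as shifts of their lists. Of the 7 plasma cell markers 0 passed limma's test and 2 had an unadjusted p under 0.05. One of the erythroid markers was Tfrc, the transferrin receptor (-1.19 ± 0.16), which dividing cells of many types also carry. The part of these other cells in the results was not tested.

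**Figure D4:**
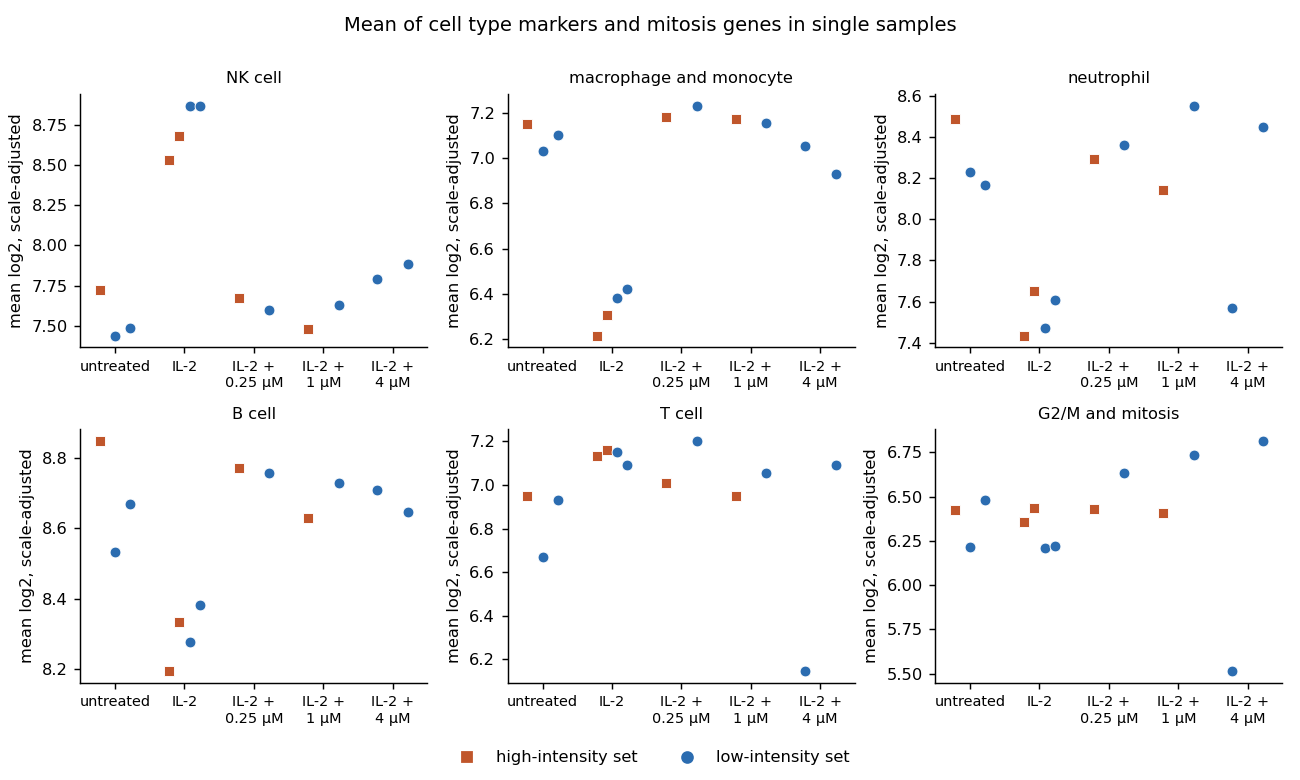
Mean log2 value, adjusted for the intensity set, of the NK cell, macrophage, neutrophil, B cell and T cell markers and of the G2/M genes in single samples of 5 groups. The IL-2 samples are highest for NK cell markers (8.53 to 8.87) and lowest for macrophage markers (6.21 to 6.42), and 4 µM replicate 1 is the low point for T cell markers (6.15) and G2/M genes (5.51).

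Each dose alone moved many genes. At 1 µM, 1293 genes differed from IL-2 (6.55%, 2 samples against 4), 565 of them higher (2.86%) and 728 lower (3.69%), and at 4 µM 1483 (7.51%), 594 of them higher (3.01%) and 889 lower (4.5%). Without 1 µM replicate 1 or replicate 2 the 1 µM count was 563 or 468. After quantile normalization the 4 µM split was 1318 higher and 1270 lower. Without 1 of the 4 µM samples the split changed more: without 4 µM replicate 1 it was 907 higher and 531 lower, and without 4 µM replicate 2 it was 387 higher and 1321 lower. These comparisons share the IL-2 samples, so their values are set side by side. Gzmb changed by -5.15 at 1 µM and -4.99 at 4 µM, Ifng by -3.79 and -4.05, Cish by -1.85 and -2.20, and Myc by -2.15 and -2.51. Ifit3 changed by -2.56 and -3.82, Cxcl9 by -3.68 and -4.96, and Usp18 by -2.57 and -3.76.

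The difference between 4 and 1 µM was tested directly, with 2 samples against 2 and no shared control. No gene passed (0 of 19752, limma, 0.0%), 1040 had an unadjusted p under 0.05, and the median half-width of the 95% interval was 0.395 log2 units. Unadjusted counts here and below are to be read beside a share of 0.05 of the 19752 genes, which no difference at all would give on average. Leaving out 4 µM replicate 2 gave 83 calls, and leaving out any other of the 4 samples gave 0. The unadjusted count ran from 378 in the low-intensity set alone to 2252 without 4 µM replicate 2. For Gzmb the difference was 0.16 (95% interval -0.80 to 1.13), for Cish -0.35 (-0.74 to 0.04) and for Il2ra -0.63 (-1.14 to -0.12). All 38 type I interferon-stimulated genes had a difference below 0, as did 61.9% of all genes, and their median was -0.469 against -0.055 over all genes. Both 4 µM samples are in the low-intensity set, where the fall of this list was larger, so dose and set cannot be fully told apart. The difference was -1.26 (-2.13 to -0.39, adjusted p = 0.860) for Ifit3 and -1.28 (-1.92 to -0.64, adjusted p = 0.814) for Cxcl9. The IL-2/STAT5 list had a median difference of -0.13 and the NK cell markers one of 0.255.

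The pooled doses were next set against 0.25 µM of the same inhibitor (4 samples against 2). Again 0 of 19752 genes passed (limma, 0.0%) and 560 had an unadjusted p under 0.05, with 5 calls when 0.25 µM replicate 1 was left out and 11 when 1 µM replicate 2 was. The unadjusted count was 65 without 0.25 µM replicate 2, 1146 without 0.25 µM replicate 1, 1583 without 1 µM replicate 1, 358 without 4 µM replicate 1 and 1647 in the low-intensity set alone. Ifit3, at 9.83 (high-intensity) and 8.66 (low-intensity) with 0.25 µM, differed by -2.11 (95% interval -2.97 to -1.25, adjusted p = 0.0882). Usp18 stood at 9.40 and 8.82 with 0.25 µM, and its difference was -2.02 (-2.85 to -1.19, adjusted p = 0.0882). The higher doses thus had lower values of both genes in each set, short of the threshold. All 38 type I interferon-stimulated genes had a difference below 0 (69.1% of all genes did), the median being -1.15, and 37 of the 38 had an unadjusted p under 0.05. The intensity sets were unevenly split here too, so dose and set cannot be fully told apart. For the IL-2/STAT5 list the median difference was -0.22 and for the ribosome biogenesis list -0.14. Gzmb differed by -0.73 (-1.52 to 0.07), Cish by -0.05 (-0.40 to 0.30), Ifng by -0.14 (-0.54 to 0.25) and Il2ra by -0.64 (-1.12 to -0.16).

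**Figure D5:**
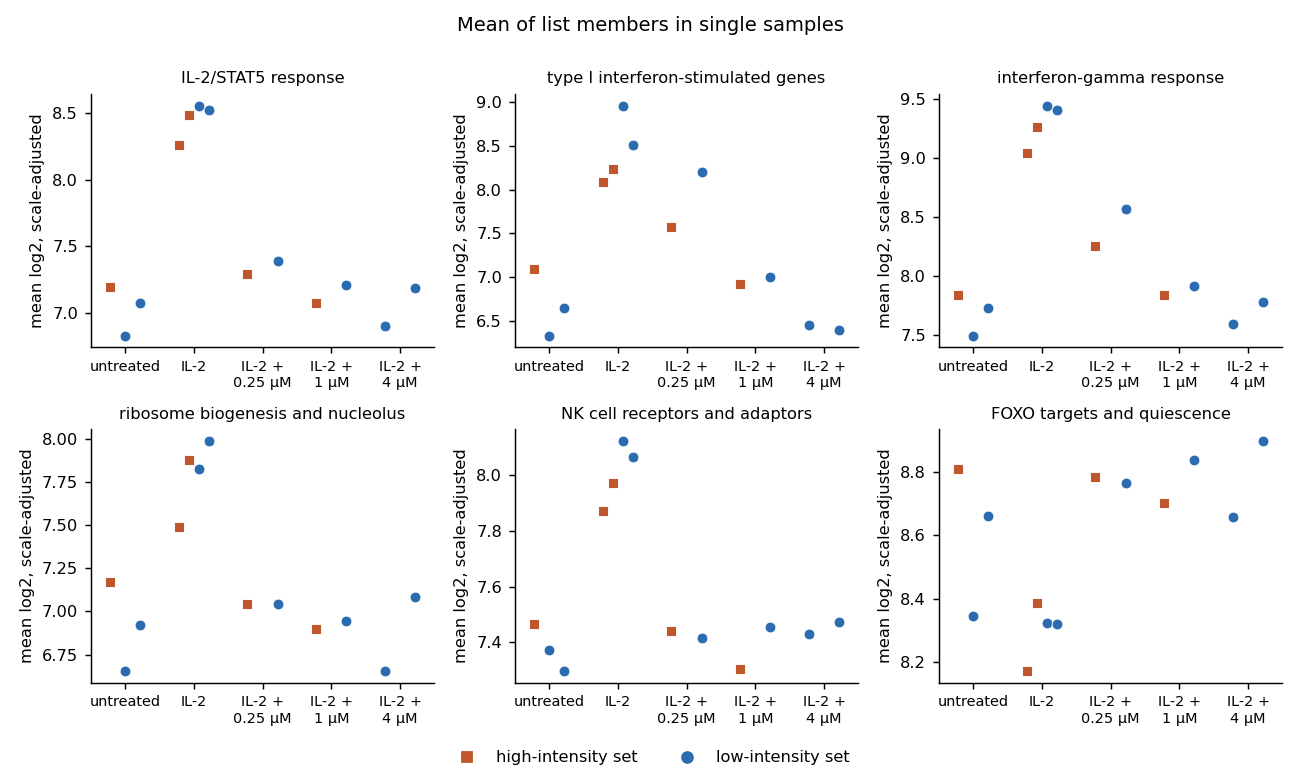
Mean log2 value, adjusted for the intensity set, of 6 response lists in single samples of the untreated, IL-2 and IL-2 with JAK3 inhibitor groups. For type I interferon-stimulated genes the 0.25 µM samples (7.57 and 8.21) lie between the IL-2 samples (8.08 to 8.96) and the 1 and 4 µM samples (6.396 to 7.002) apart from an overlap of the upper one with IL-2, and for the IL-2/STAT5 list the 0.25 µM samples (7.29 and 7.39) lie close to the 1 and 4 µM samples (6.90 to 7.21).

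The inhibitor samples were also set against untreated cells, a comparison added after the data were seen (4 samples against 3). Here 0 of 19752 genes passed (limma, 0.0%) and 806 had an unadjusted p under 0.05, with 2 calls when untreated replicate 2 was left out. The unadjusted count was 3935 without that sample, 3050 in the low-intensity set alone, 1987 without 1 µM replicate 1 and 1690 without 4 µM replicate 1, and it was 380 without untreated replicate 3, 359 without 4 µM replicate 2 and 502 without 1 µM replicate 2. For Gzmb, at 9.03 in the high-intensity and 5.88 and 6.80 in the low-intensity untreated samples, the difference was 0.12 (95% interval -0.57 to 0.82). For Cish it was 0.07 (-0.23 to 0.38), for Ifng -0.14 (-0.49 to 0.21), for Bcl2 0.05 (-0.30 to 0.40) and for Csf1r 0.12 (-0.25 to 0.49). Prf1 had an interval above 0, 0.56 (0.04 to 1.08, adjusted p = 0.851), and Cd7 as well, 0.29 (0.02 to 0.57, adjusted p = 0.851). The list medians were 0.061 for the IL-2/STAT5 response, 0.037 for type I interferon-stimulated genes, -0.018 for ribosome biogenesis and 0.163 for FOXO targets, against 0.011 over all genes. These intervals bound a difference and do not show that inhibited and untreated cells are alike. IL-2 itself against untreated cells changed 1898 genes in the same fit.

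At matched doses the JAK3 inhibitor was compared with the JAK1 inhibitor, as the mean of the differences at 1 µM (2 against 2) and at 4 µM (2 against 1). No gene passed (0 of 19752, limma, 0.0%), 335 had an unadjusted p under 0.05, and at 1 µM and 4 µM taken singly 167 and 532 did, with 2 calls when 4 µM replicate 2 of the JAK3 inhibitor was left out. The unadjusted count over both doses ran from 256 to 972 when 1 sample was left out, the highest being without 4 µM replicate 1 of the JAK3 inhibitor. In the JAK1 inhibitor group 1 µM replicate 1 stood apart: its NK cell markers had a scale-adjusted mean of 8.354, against 7.656 and 7.716 in the other JAK1 inhibitor samples and 7.482 to 7.882 with the JAK3 inhibitor. Gzmb was at 10.95 in 1 µM replicate 1 of the high-intensity set, against 8.13 with the JAK3 inhibitor, but at 7.22 (1 µM) and 6.89 (4 µM) in the low-intensity set, against 7.09, 6.62 and 6.94. The Gzmb difference, JAK3 minus JAK1 inhibitor, was -0.79 (95% interval -1.53 to -0.05, adjusted p = 1.00), and that of Cish was 0.03 (-0.27 to 0.33). Type I interferon-stimulated genes lay on the other side: 0 of 38 had a difference below 0, where 52.0% of all genes did, and the median was 0.45. Oas2, at 7.41, 5.39 and 5.04 with the JAK1 inhibitor, was higher with the JAK3 inhibitor in each set at 8.33 and 6.23, 5.62 and 5.76 (difference of 0.76, 0.31 to 1.22, adjusted p = 1.00). None of these differences passed over all genes, and a p that misses the threshold does not show that the compounds act alike.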

How the data were processed

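RNA of NK cells was measured on Affymetrix Mouse Gene 1.0 ST arrays, 1 array for each of the 19 samples. The deposited values are intensity values per probe set, and per the submitters' processing notes Affymetrix Power Tools and RMA were used, while their versions are not given in the sources used here. Deposited intensities were then put on the log2 scale. Of 24922 probe sets, 21425 carried 1 gene symbol, 1399 several and 2098 none in the annotation used. The probe sets with 1 symbol gave 19752 genes, of which 921 had several probe sets. Sets of intensity were split at a median log2 of 6.6.

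limma 3.58.1 in R 4.3.3 fitted group means and a term for the intensity set over all 19 samples (lmFit, then eBayes with an intensity trend), with Benjamini-Hochberg adjustment over all genes at 0.05. Comparisons of single doses, and of the inhibitors, gave each dose its own mean. Figures used Python 3.11.15. The fit was tested on simulated data with 200 changed genes of 19752: for the comparison of both doses with IL-2 it recovered 98 of 100 at a log2 change of 1 and 100 of 100 at 2, with 6 false calls. The simulated noise was independent between samples and the set term additive. The simulation therefore does not cover samples that deviate together or changes that differ by set.

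Named genes were the 15 largest falls and 15 largest rises past the threshold, passing over predicted and small RNA genes, for each list the 5 members of lowest p at most, and 12 core genes (the receptor genes Il7r and Il2ra, the kinase genes Jak3 and Pim1, and Bcl2, Cish, Gzmb, Ifng, Myc, Prf1, Socs1 and Socs2). The rule also covered the 6 largest rises and falls at single doses, which are not all printed. Promoters were printed for up to 3 genes of each of 2 lists, those with the largest fall that held a motif, which added Oas3 and Slfn5. The exceptions stated in the text were added after values were seen. The compared samples, the lists and the rule were chosen with earlier results of these data known. Alternatives were other normalizations, filters, probe set rules, sample subsets, a replicate term and leaving out each sample.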

Additional observations from a re-analysis of the deposited data

Results flagged for a closer look

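Of 258 groups of 4 samples (129 genes or lists in the IL-2 and in the inhibitor group), 16 held a sample whose gap to the next, as a share of the group's range, exceeded Dixon's 95% critical value after adjustment for the intensity set, where chance gives about 1 in 20. IL-2 replicate 1 was the low sample for Thy1 (0.91), Clec4n (0.889), Socs2 (0.885), Cdk4 (0.924), Tnf (0.838) and Cd28 (0.846). IL-2 replicate 3 was the high sample for Cxcl10 (0.95). The sample 4 µM replicate 1 was low for Il7r (0.923), Gbp7 (0.88), Gnl3 (0.899), Zeb2 (0.943), Cx3cr1 (0.849), Tfrc (0.937) and the mean of the T cell markers (0.852). The sample 4 µM replicate 2 was high for Eef1e1 (0.89), and 1 µM replicate 2 was high for Clec4n (0.929).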

How the results depend on the processing

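The comparison of both doses with IL-2 gave 2018 genes, 1011 in the low-intensity set alone and 0 in the high-intensity set alone (1247 at an unadjusted p under 0.05, limma), and between 1424 and 2063 when 1 sample was left out. At 1 µM the count was 2163 after quantile normalization, 261 in the low-intensity set and 468 to 1396 without 1 sample. At 4 µM it was 2588, 638 and 1000 to 1708. Without 1 sample, 4 against 1 µM gave 0 to 83 calls, the higher doses against 0.25 µM 0 to 11, the inhibitors against each other 0 to 2 and the inhibitor against untreated cells 0 to 2. Leaving out the 1 JAK1 inhibitor sample at 4 µM could not be fitted. Same-numbered samples deviated together at r = 0.3438 to 0.5999. The groups share only 2 numbers and deviations within a group of 2 mirror each other, so these pairs are not independent. The labels do not say what a number marks, so whether same-numbered samples share mice, a culture or an array run is not known. With the replicate number as a block the counts were 804 (both doses, 518 higher and 286 lower), 849 (1 µM), 577 (4 µM) and 2 (4 against 1 µM). The list counts that follow are to be read beside the 286 lower and 518 higher of 19752 genes under the block, not beside the shares of the main fit. Members lower under the block were 23 of 39 for IL-2/STAT5, 25 of 38 for type I and 12 of 23 for interferon-gamma genes, 17 of 47 for ribosome biogenesis, 5 of 25 for polyamine synthesis, 3 of 23 translation factors, 4 of 23 and 3 of 25 chaperones (cytosolic with mitochondrial, and endoplasmic reticulum), 0 of 30 proteasome subunits, 11 of 31 NK receptors, 3 of 37 G1/S genes, 4 of 27 immediate early and 2 of 20 NF-kappaB genes, while 13 of 31 FOXO targets, 7 of 15 neutrophil and 0 of 14 B cell markers were higher. Of 112 named genes past the threshold, 97 stayed past it under every alternative except the high-intensity set alone, 14 were lost under the block and 9 in the low-intensity set. Named genes were mostly picked for large changes or small p. Of all 2018 genes, 547 stayed past the threshold under every alternative except that set and the filter on dim genes. No named gene past the threshold changed sign under the alternatives tried, but 1 of the 2018 genes had the other sign in the high-intensity set alone, the split of 1117 lower and 901 higher turned round under the block, after quantile normalization and without 4 µM replicate 1, and the G2/M median went from 0.074 to -0.067 without 4 µM replicate 2. The cause of these moves was not tested. The small number of arrays, and of inhibitor samples in the high-intensity set (1), limits what can be detected.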
